A study of Mus musculus with 9 samples.

Results

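Integrins are the α/β receptor pairs that tie cells to the matrix around them and to other cells, and laminins are the α/β/γ trimers at the core of the basement membrane to which several integrins bind. The genes of their chains were described here in Lewis lung carcinoma (LLC) tumours, grown from a transplantable C57BL/6 mouse lung tumour line. The members were every gene whose symbol is that of an integrin α chain, an integrin β chain or a laminin α, β or γ chain. They came to 37 of the 35321 genes in the deposited table, with 18 integrin α, 8 integrin β and 11 laminin genes. The tumours came from male C57BL/6 mice of 4 to 5 weeks that received 5000000 LLC cells in the right flank. Groups of 3 samples each received intraperitoneal digoxin at 0.1 mg/kg, digoxin at 1 mg/kg or the vehicle PBS from day 5. Digoxin, a cardiac glycoside, blocks the sodium-potassium pump. No gene was altered in any group, and every group held the same implanted line in the same host strain. Whole tumours were measured, so tumour cells, leukocytes, vessels and stroma share each value.

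In an integrin the β chain sets the family and the α chain sets most of the ligand choice. The β1 chain pairs with α3, α6 and α7 to bind laminin, with α1, α2, α10 and α11 to bind collagen, and with α5 to bind fibronectin. The β2 chain is carried by leukocytes and pairs with αL (LFA-1), αM (Mac-1, on neutrophils and macrophages), αX or αD. Laminin trimers of the α4 and of the α5 chain share the β1 and γ1 chains of Lamb1 and Lamc1, and both are found in vessel walls.

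Among the genes called at both doses against vehicle (adjusted p under 0.05), RefSeq's table of mouse promoter windows (GRCm38.p6) held the sequence of Itgam, Itgb5 and Lamb1. They are shown because they had an entry, and are a leukocyte α chain that was higher and a broadly expressed β chain and a laminin β chain that were lower. Each run ends at the base before the annotated start, except that of Lamb1, where the last 59 bases are not printed. All are on the plus strand, Itgam at chr7:128062390-128062639, Itgb5 at chr16:33829415-33829664 and Lamb1 at chr12:31265043-31265233. Capitals mark the PU box GAGGAA, the core letters bound by the myeloid factor PU.1, and the GC box GGGCGG, bound by Sp factors, on either strand.
Itgam: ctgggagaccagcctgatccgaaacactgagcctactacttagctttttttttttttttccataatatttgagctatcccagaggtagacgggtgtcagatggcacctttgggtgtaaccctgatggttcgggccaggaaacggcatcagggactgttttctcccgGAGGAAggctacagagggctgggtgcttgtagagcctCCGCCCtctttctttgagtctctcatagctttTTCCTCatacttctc
Itgb5: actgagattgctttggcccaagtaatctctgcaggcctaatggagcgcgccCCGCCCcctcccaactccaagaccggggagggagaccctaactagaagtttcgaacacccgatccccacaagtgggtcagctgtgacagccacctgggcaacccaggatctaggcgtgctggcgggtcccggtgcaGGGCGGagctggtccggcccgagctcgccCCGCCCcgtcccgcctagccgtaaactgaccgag
Lamb1: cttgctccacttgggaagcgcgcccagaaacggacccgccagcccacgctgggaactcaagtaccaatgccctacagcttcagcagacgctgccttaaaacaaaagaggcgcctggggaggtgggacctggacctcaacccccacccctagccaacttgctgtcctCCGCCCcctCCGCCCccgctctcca
The 250-base window of Itgam held 2 PU boxes, which begin 84 and 15 bases before the start, and 1 GC box. The window of Itgb5 held 3 GC boxes and no PU box. The full window of Lamb1 held 2 GC boxes and, in the bases not printed, 1 PU box. Of all 32851 windows in the table, 23.3% held a PU box and 32.7% a GC box, and the AP-1 letters TGANTCA, present in 6.75%, were in none of these 3 windows. These matches describe letters only. The other 3 genes called at both doses, Itga7, Lama4 and Lamc1, had no entry, and 23 of the 37 members had one.

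Values are FPKM, fragments per kilobase of exon scaled to library depth, which allow levels to be compared between genes. The library depths recovered from the values were 42870997 to 43319883 at 0.1 mg/kg, 40517062 to 42252370 at 1 mg/kg and 48649867 to 51810956 with vehicle. On the first principal component of the tested genes, with 69.4% of the variance, sample 2 at 0.1 mg/kg (0.604) and sample 1 at 1 mg/kg (-9.12) lay between the vehicle samples (47.6 to 55) and the other 4 digoxin samples (-37.9 to -35.7). Results that rest on these 2 samples are therefore also given without both. That fit was chosen after seeing the data and drops the digoxin samples nearest vehicle, which favours wider differences and more calls. It called 61.5% of all tested genes at 0.1 mg/kg and 61.3% at 1 mg/kg, against 42.2% and 45.9% with all samples. Its adjusted p-values are descriptions and not independent support. Nothing in the labels ties the samples to separate mice, so the spread behind each p-value is that of these samples and may be technical. Of 12 listed epithelial markers 3 were tested, all keratins of simple epithelia, and the list summed to 82.1 to 109 FPKM at 0.1 mg/kg, 113 to 137 FPKM at 1 mg/kg and 46.5 to 68.1 FPKM with vehicle. Krt8 had 58.7 to 105 FPKM at 0.1 mg/kg, 103 to 126 FPKM at 1 mg/kg and 1.70 to 4.13 FPKM with vehicle, and was called higher at both doses, as was Krt19, which passed the filter only through digoxin samples. Krt18 was called lower, with 0.932 to 16.8, 1.03 to 8.84 and 43.1 to 63.0 FPKM at 0.1 mg/kg, 1 mg/kg and with vehicle. Epcam was at most 0.15 FPKM and Cdh1 under 1 FPKM in every sample. Skeletal muscle genes, which mark tissue beside the tumour, were present in every library. In bulk samples, fewer cells of a type and less RNA per cell cannot be told apart.

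The integrin make-up of the tumours was led by Itgb1 in all groups, with mean levels of 167 ± 8.53 FPKM at 0.1 mg/kg, 194 ± 15.3 FPKM at 1 mg/kg and 205 ± 10.1 FPKM with vehicle (SD, n = 3 each). Itgb7, Itga5, Lama5, Itgb2, Lamb1, Itgb5, Itga3, Lamc1 and Lamb2 lay between 20.2 and 86.6 FPKM in every sample. By group mean, 12 members were at 10 FPKM or more at 0.1 mg/kg, 15 at 1 mg/kg and 13 with vehicle, and 14, 14 and 17 were under 1 FPKM. A gene was tested where it reached 1 FPKM in at least 3 of the 9 samples, which 24 of the 37 members and 13687 genes did. A member that passed this filter only through the group where it is high was selected for being higher there, though not for passing the test. Counts over the tested members therefore describe those 24 only. For Itga2, Itga2b and Itgb4 every vehicle value was under 1 FPKM, so each passed the filter only through digoxin samples.

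**Figure D1:**
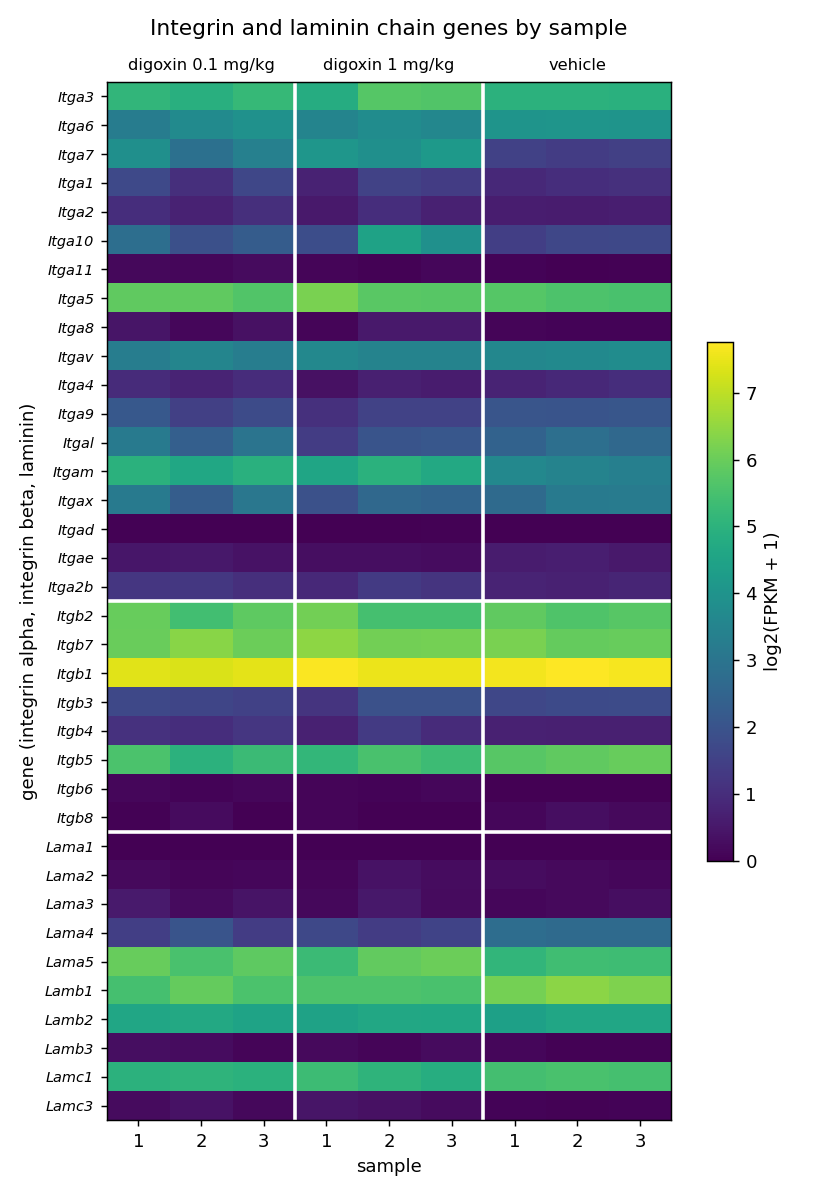
Level of integrin and laminin chain genes (rows, by role) in each of the 9 samples (columns, digoxin 0.1 mg/kg, digoxin 1 mg/kg, then vehicle), coloured by log2(FPKM + 1). Itgb1 is the brightest row throughout, Itga7 and Itgam are higher in all 6 digoxin samples, and Lama4 is lower in them.

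At 0.1 mg/kg, 9 of the 24 tested members passed the test against vehicle (limma on log2(FPKM + 1), adjusted p under 0.05 over all tested genes), 3 higher and 6 lower. That is 37.5% of the members, against 42.2% of all tested genes, so the share is no larger than the background. At 1 mg/kg again 9 of the 24 passed, 3 higher and 6 lower, against a background of 45.9%. In direction, 21.6% of all tested genes were called higher and 20.7% lower at 0.1 mg/kg, and 20.7% higher and 25.2% lower at 1 mg/kg. Scaling to TPM turned the split at 0.1 mg/kg to 2368 genes higher and 3790 lower and quantile scaling to 2403 and 3552, against 2952 and 2829, and under TPM 2 members were higher and 7 lower there. With at least a 2-fold change, 3 members passed at 0.1 mg/kg against 8.93% of all tested genes, and 4 at 1 mg/kg against 10%. The median log2 fold change of the 24 was 0.072 at 0.1 mg/kg and -0.0051 at 1 mg/kg, beside 0.018 and -0.037 over all tested genes. Groups of 3 did not overlap for 14 of the 24 at each dose, against 60.2% of all tested genes at 0.1 mg/kg and 58.3% of them at 1 mg/kg. The 2 comparisons share the vehicle samples. By chain type, 3 α genes were called higher and 1 lower of 13 at 0.1 mg/kg, and 3 higher and 2 lower at 1 mg/kg. Among 6 β genes 2 were called lower at 0.1 mg/kg, and only Itgb5 was at 1 mg/kg. Of 5 laminin genes 3 were called lower at each dose. With both in-between samples left out, 16 members were called at 0.1 mg/kg (10 higher, 6 lower) and 17 at 1 mg/kg (8 higher, 9 lower), and 61.5% and 61.3% of all tested genes were called in that fit. With vehicle sample 2 or vehicle sample 3 left out, 5 were called at either dose, or 20.8%, where at 0.1 mg/kg 25.4% to 25.5% of all tested genes were called and at 1 mg/kg 30.2% to 31.2%.

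**Figure D2:**
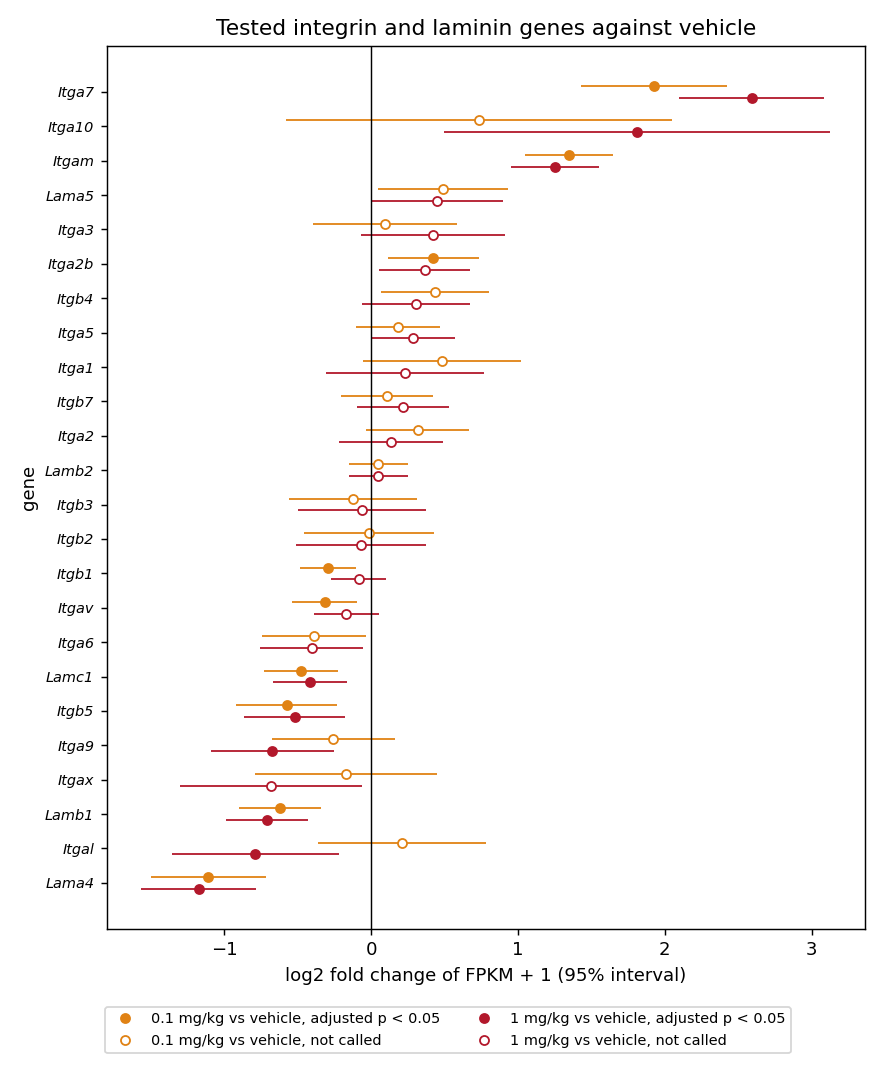
Log2 fold change against vehicle of the 24 tested members at digoxin 0.1 mg/kg and 1 mg/kg, on the log2(FPKM + 1) scale, with 95% confidence intervals from limma; filled points passed an adjusted p of 0.05. Itga7 and Itgam lie highest among the genes called at both doses, and Lama4 and Lamb1 lowest.

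Among the laminin-binding α chains, Itga7 was higher at both doses while Itga3 and Itga6 did not pass the test. Itga7, the α chain of the laminin receptor of skeletal and smooth muscle, had 13.7, 6.34 and 9.46 FPKM at 0.1 mg/kg, 16.0, 13.6 and 17.2 FPKM at 1 mg/kg and 1.85, 1.59 and 1.78 FPKM with vehicle. Every digoxin sample was above every vehicle sample. Group means were 9.85 ± 3.71, 15.6 ± 1.82 and 1.74 ± 0.136 FPKM at 0.1 mg/kg, 1 mg/kg and with vehicle (SD, n = 3 each), ratios of 5.66 and 8.96 to vehicle. The log2 fold change in limma was 1.93 ± 0.22 at 0.1 mg/kg (SE, adjusted p = 0.000758) and 2.59 ± 0.22 at 1 mg/kg (adjusted p = 0.000245). It was called under every alternative tried at both doses. Between the doses the log2 difference, 1 mg/kg over 0.1 mg/kg, was 0.66 (95% interval 0.17 to 1.16) with an adjusted p of 0.249.

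Several skeletal muscle genes were also higher with digoxin, though not sample by sample with Itga7. Of 14 listed muscle markers 11 were tested, and 5 were called higher and none lower at each dose. Of all tested genes, 21.6% were called higher at 0.1 mg/kg and 20.7% at 1 mg/kg. Without both in-between samples all 11 were called higher at each dose, in a fit that called 61.5% and 61.3% of all tested genes. Myh1, called higher at 0.1 mg/kg, passed the filter only through digoxin samples. Their summed level was 208 to 414 FPKM at 0.1 mg/kg, 96.2 to 1328 FPKM at 1 mg/kg and 54.8 to 134 FPKM with vehicle. Tnnc2 was at 0 in 5 of the 9 samples, and none of the other markers was at 0 in any. In sample 1 at 1 mg/kg the muscle sum of 96.2 FPKM was within the vehicle range while Itga7 was at 16.0 FPKM. The part of muscle tissue in the Itga7 difference was not tested.

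Itga3, a laminin receptor chain of epithelia, had 33.8, 28.6 and 35.6 FPKM at 0.1 mg/kg, 27.0, 52.1 and 49.0 FPKM at 1 mg/kg and 31.0, 30.6 and 29.6 FPKM with vehicle. Samples 2 and 3 at 1 mg/kg were above all vehicle samples, and sample 1 was below them. The log2 fold changes were 0.095 at 0.1 mg/kg (limma, adjusted p = 0.744) and 0.42 at 1 mg/kg (adjusted p = 0.141). Without sample 1 at 1 mg/kg the fold change there was 0.71 (adjusted p = 0.00119). Without both in-between samples Itga3 was also called at 0.1 mg/kg (0.19, adjusted p = 0.0254). Itga6, the partner of Itgb4 in hemidesmosomes and of Itgb1 elsewhere, had 8.65, 12.3 and 14.3 FPKM at 0.1 mg/kg, 10.3, 12.7 and 11.1 FPKM at 1 mg/kg and 15.1, 15.7 and 15.4 FPKM with vehicle. All digoxin samples lay below all vehicle samples, with fold changes of -0.39 (limma, adjusted p = 0.0731) and -0.41 (adjusted p = 0.06). As a share of the summed Itga3, Itga6 and Itga7 level, Itga7 made up 13.4% to 24.5% at 0.1 mg/kg, 17.3% to 30.0% at 1 mg/kg and 3.32% to 3.86% with vehicle.

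Of the collagen-binding α chains, Itga10 was called higher at 1 mg/kg, on 2 of the 3 samples. Itga10, known from cartilage, had 5.94, 2.76 and 3.77 FPKM at 0.1 mg/kg, 2.54, 21.2 and 13.9 FPKM at 1 mg/kg and 1.70, 2.15 and 2.18 FPKM with vehicle. Digoxin samples were above vehicle samples at both doses, by a small margin in sample 1 at 1 mg/kg. The log2 fold change was 0.73 ± 0.58 at 0.1 mg/kg (SE, limma, adjusted p = 0.327) and 1.81 ± 0.58 at 1 mg/kg (adjusted p = 0.032). The call at 1 mg/kg was lost in 5 of the 9 fits that leave out 1 sample, with an adjusted p of up to 0.1. Without both in-between samples the fold change was 0.94 at 0.1 mg/kg (adjusted p = 0.00604) and 2.60 at 1 mg/kg (adjusted p = 5.04e-05). The samples with the most Itga10, samples 2 and 3 at 1 mg/kg, also had the highest muscle sums, 512 and 1328 FPKM. They had the highest sums of endothelial markers too, 105 and 106 FPKM. Sample 3 at 0.1 mg/kg, with a muscle sum of 414 FPKM, had 3.77 FPKM of Itga10. The part of muscle or vessels in the Itga10 difference was not tested. Itga1 and Itga2 lay between 0.445 and 2.29 FPKM and were not called at either dose. With both in-between samples left out, Itga1 was called higher at 0.1 mg/kg (0.69, limma, adjusted p = 0.000858) and 1 mg/kg (0.46, adjusted p = 0.00593), and Itga2 at 0.1 mg/kg (0.41, adjusted p = 0.0206). Itga11 was at most 0.162 FPKM.

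**Figure D3:**
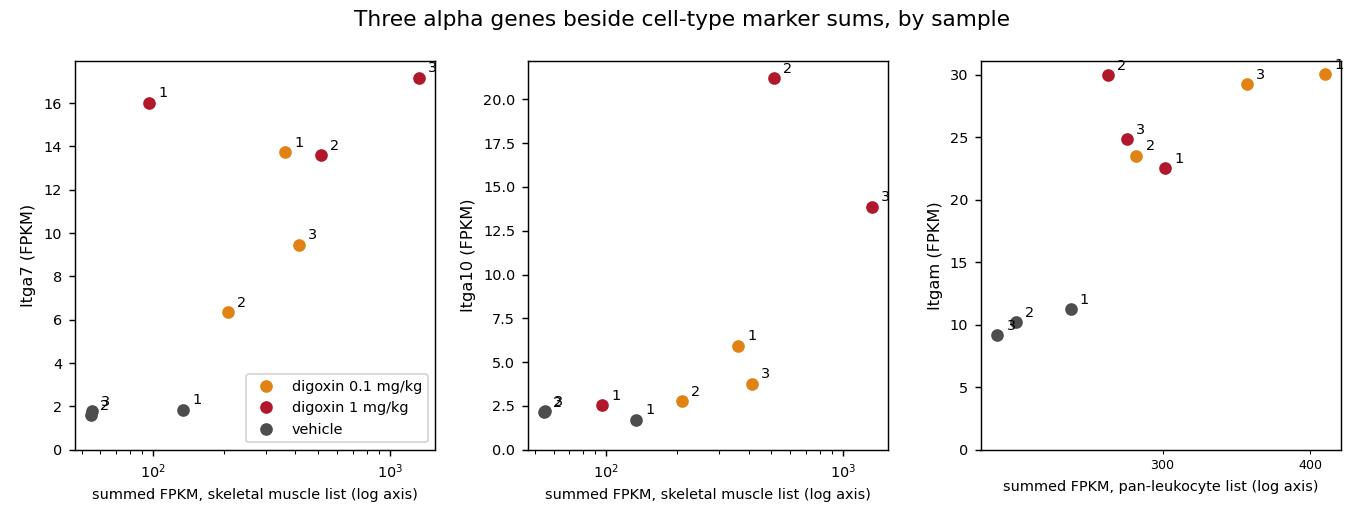
Level of Itga7 and Itga10 against the summed level of the skeletal muscle markers, and of Itgam against the summed pan-leukocyte markers, 1 point per sample in FPKM, coloured by group. Sample 1 at 1 mg/kg has Itga7 at 16.0 FPKM with a muscle sum of 96.2 FPKM, and every digoxin sample has more Itgam than every vehicle sample.

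Of the α chains that bind the RGD motif of fibronectin and vitronectin, Itgav was called lower at 0.1 mg/kg and Itga5 was not called. Itga5, the fibronectin receptor chain, had 57.8, 56.9 and 50.0 FPKM at 0.1 mg/kg, 72.2, 53.8 and 52.6 FPKM at 1 mg/kg and 51.3, 47.9 and 45.6 FPKM with vehicle. Its fold changes of 0.18 and 0.28 did not pass (limma, adjusted p = 0.267 and 0.094). Itgav, the vitronectin receptor chain, had 8.78, 10.6 and 8.80 FPKM at 0.1 mg/kg, 11.3, 9.99 and 10.2 FPKM at 1 mg/kg and 11.1, 11.9 and 12.8 FPKM with vehicle. It was lower at 0.1 mg/kg, where no sample overlapped vehicle, by a log2 fold change of -0.32 ± 0.10 (SE, limma, adjusted p = 0.03). That call was lost in 4 of the 9 fits without 1 sample, up to an adjusted p of 0.109, and at 1 mg/kg the change of -0.17 did not pass (adjusted p = 0.181), but did without both in-between samples (-0.22, adjusted p = 0.0286). Itga8, of smooth muscle and kidney, was not tested and had 0.101 to 0.355 FPKM at 0.1 mg/kg, 0.0707 to 0.459 FPKM at 1 mg/kg and 0.0570 to 0.0725 FPKM with vehicle.

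Itga9, which binds tenascin-C and osteopontin, was lower at 1 mg/kg. It had 3.39, 1.77 and 2.40 FPKM at 0.1 mg/kg, 1.11, 1.89 and 1.88 FPKM at 1 mg/kg and 3.12, 3.04 and 3.26 FPKM with vehicle. The groups did not overlap at 1 mg/kg and overlapped at 0.1 mg/kg, where sample 1 was the highest of all 9. The fold change was -0.67 ± 0.18 at 1 mg/kg (SE, limma, adjusted p = 0.0176) and -0.26 at 0.1 mg/kg (adjusted p = 0.278). The call at 1 mg/kg was lost without vehicle sample 3 (adjusted p = 0.0585). Itga4, the α4 chain of VLA-4, lay between 0.283 and 1.00 FPKM and was not among the tested genes.

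Leukocyte α chains did not move together. Itgam, the αM chain of Mac-1, had 30.1, 23.5 and 29.2 FPKM at 0.1 mg/kg, 22.5, 30.0 and 24.8 FPKM at 1 mg/kg and 11.2, 10.2 and 9.18 FPKM with vehicle. The lowest digoxin sample was above the highest vehicle sample. Means were 27.6 ± 3.55, 25.8 ± 3.82 and 10.2 ± 1.04 FPKM at 0.1 mg/kg, 1 mg/kg and with vehicle (SD, n = 3 each). The log2 fold change was 1.35 ± 0.13 at 0.1 mg/kg (SE, limma, adjusted p = 0.000463) and 1.25 ± 0.13 at 1 mg/kg (adjusted p = 0.000495), called under every alternative tried.

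Itgal, the αL chain of LFA-1 on lymphocytes and other leukocytes, had 8.08, 4.12 and 6.87 FPKM at 0.1 mg/kg, 1.61, 3.07 and 3.32 FPKM at 1 mg/kg and 4.44, 6.09 and 5.13 FPKM with vehicle. All samples at 1 mg/kg were below all other samples. Its fold change was -0.79 ± 0.25 at 1 mg/kg (SE, limma, adjusted p = 0.0312), lost in 3 of the 9 fits without 1 sample, and 0.21 at 0.1 mg/kg (adjusted p = 0.517). The fit without both in-between samples called it higher at 0.1 mg/kg (0.45, adjusted p = 0.0144). Between the doses it was -1.00 (95% interval -1.57 to -0.43, adjusted p = 0.162), and -1.01 without both in-between samples (adjusted p = 0.0122).

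Itgax, the αX chain of dendritic cells and macrophages, had values of 3.90 to 8.16 FPKM at 0.1 mg/kg, 2.81 to 5.10 FPKM at 1 mg/kg and 5.45 to 8.34 FPKM with vehicle. It was not called, with a fold change of -0.68 at 1 mg/kg (limma, adjusted p = 0.069) and -0.17 at 0.1 mg/kg (adjusted p = 0.629). At 1 mg/kg it was called lower without both in-between samples (-0.47, adjusted p = 0.0321). Itgad was at most 0.0362 FPKM and Itgae, the αE chain of tissue-resident lymphocytes, lay between 0.205 and 0.580 FPKM. All 3 Itgae values at 1 mg/kg were below all other samples.

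The shared β2 chain Itgb2 had 60.9, 41.6 and 56.7 FPKM at 0.1 mg/kg, 67.5, 43.4 and 43.6 FPKM at 1 mg/kg and 58.0, 48.8 and 52.4 FPKM with vehicle. The groups overlapped, and the fold changes were -0.014 (95% interval -0.46 to 0.43, limma, adjusted p = 0.958) and -0.070 (-0.51 to 0.37, adjusted p = 0.786). Without both in-between samples Itgb2 was called lower at 1 mg/kg (-0.28, adjusted p = 0.0185) and not called at 0.1 mg/kg (0.15, adjusted p = 0.144). Of the summed αL, αM, αX and αD level, Itgam made up 64.9% to 74.6% at 0.1 mg/kg, 75.7% to 83.5% at 1 mg/kg and 40.5% to 53.2% with vehicle. No group overlapped another in this share, and the shares are a description without a test.

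Itgb7, the β chain of the gut-homing α4β7 and of αEβ7, had the next mean level after Itgb1 among integrin genes in every group. It had 62.1, 82.1 and 64.2 FPKM at 0.1 mg/kg, 86.6, 67.7 and 70.3 FPKM at 1 mg/kg and 72.2, 59.6 and 60.6 FPKM with vehicle, and was not called (fold changes 0.11 and 0.22, limma, adjusted p = 0.551 and 0.228). Its level was 46.0 to 72.5 times the summed level of its known α partners Itga4 and Itgae at 0.1 mg/kg, 82.2 to 175 times at 1 mg/kg and 40.9 to 59.8 times with vehicle. For Itgb2 the same ratio to its α partners was 1.30 to 1.32 at 0.1 mg/kg, 1.14 to 2.51 at 1 mg/kg and 2.01 to 2.74 with vehicle.

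Leukocyte markers moved with Itgam in part. Of 10 pan-leukocyte markers, all tested and none at 0, 7 were called higher at 0.1 mg/kg and 2 at 1 mg/kg, none lower. Their summed level was 285 to 412 FPKM at 0.1 mg/kg, 270 to 301 FPKM at 1 mg/kg and 217 to 251 FPKM with vehicle. Itgam was 7.30% to 8.27% of that sum at 0.1 mg/kg, 7.47% to 11.1% at 1 mg/kg and 4.22% to 4.53% with vehicle. Itgb2 was 14.6% to 16.0%, 15.6% to 22.4% and 21.7% to 24.1% of it at 0.1 mg/kg, 1 mg/kg and with vehicle, Itgax 1.37% to 2.09%, 0.934% to 1.89% and 2.17% to 3.84%, and Itgal 1.45% to 1.96%, 0.533% to 1.19% and 1.77% to 2.70%. Relative to these markers Itgam was thus higher in all digoxin samples and Itgax lower in all of them, without a test. Of 12 myeloid markers, 7 were called higher and none lower at 0.1 mg/kg, and 7 higher and 2 lower at 1 mg/kg, with sums of 2344 to 3221, 2110 to 3085 and 2104 to 2582 FPKM at 0.1 mg/kg, 1 mg/kg and with vehicle. Of 8 tested lymphocyte markers, 7 were called higher at 0.1 mg/kg, and 1 higher and 1 lower at 1 mg/kg. The 1 called higher at 1 mg/kg, Cd79a, was also called at 0.1 mg/kg and passed the filter only through digoxin samples. The lymphocyte marker sums, over the 12 listed, were 40.5 to 69.7 FPKM at 0.1 mg/kg, 12.4 to 39.9 FPKM at 1 mg/kg and 21.1 to 24.4 FPKM with vehicle. Of all tested genes, 21.6% were called higher and 20.7% lower at 0.1 mg/kg, and 20.7% higher and 25.2% lower at 1 mg/kg. When both in-between samples were left out, 9 pan-leukocyte markers were called higher at 0.1 mg/kg, and 3 higher and 3 lower at 1 mg/kg. That fit called 61.5% and 61.3% of all tested genes at these doses. The part of leukocyte number in the α chain differences was not tested further.

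**Figure D4:**
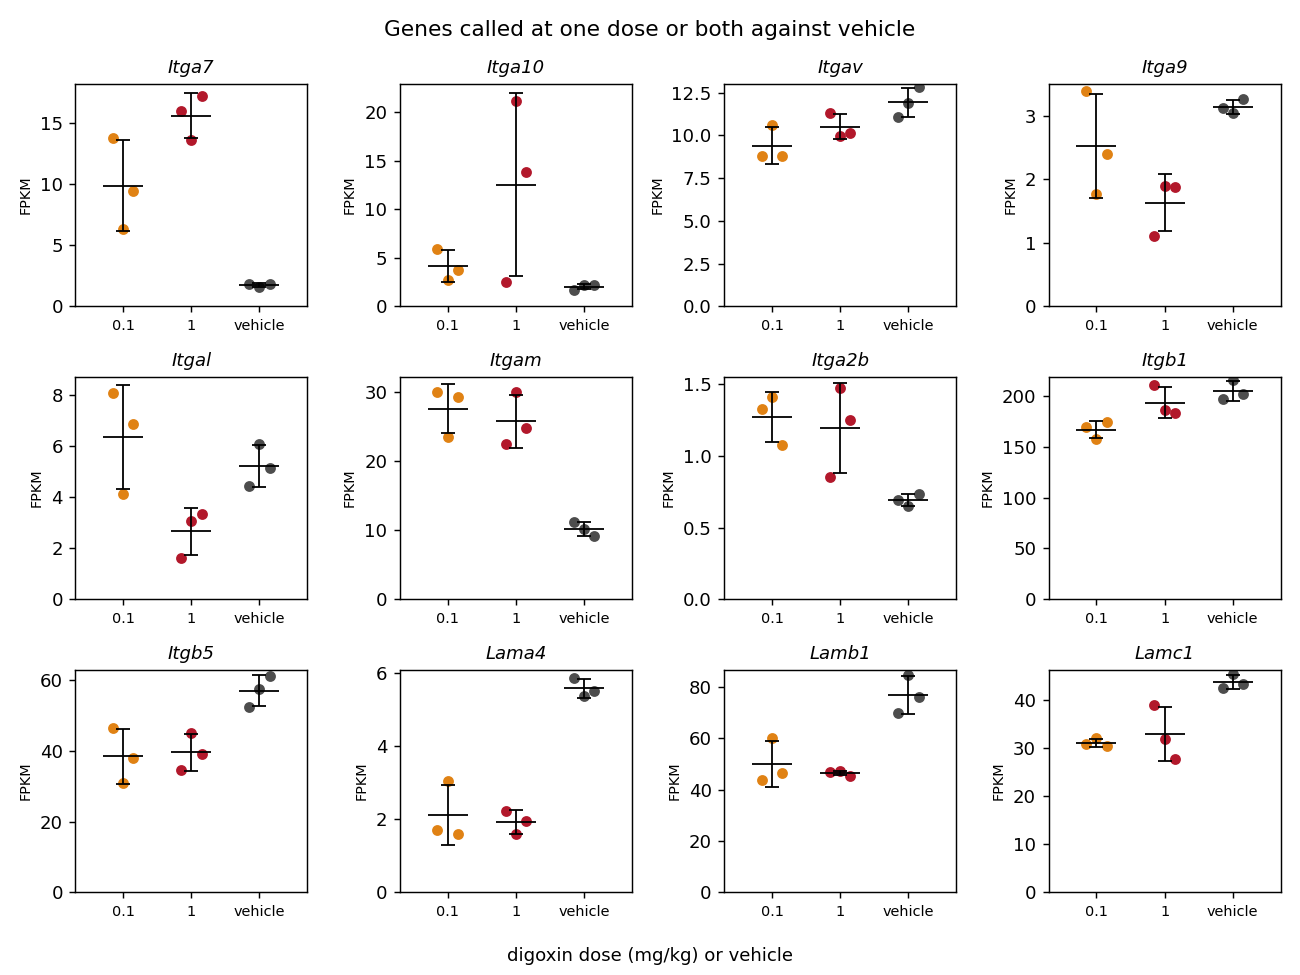
FPKM of the 12 members called at 1 dose or both, 1 point per sample with the group mean ± SD (n = 3), for digoxin 0.1 mg/kg, digoxin 1 mg/kg and vehicle from left to right. Itga7 and Itgam are above vehicle and Lama4, Lamb1, Lamc1 and Itgb5 below vehicle in all 6 digoxin samples, and Itga10 is spread widely at 1 mg/kg.

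Itga2b, the αIIb chain of the platelet fibrinogen receptor, was low throughout, with 1.33, 1.41 and 1.07 FPKM at 0.1 mg/kg, 0.855, 1.48 and 1.25 FPKM at 1 mg/kg and 0.694, 0.649 and 0.733 FPKM with vehicle. No digoxin sample overlapped vehicle, and the fold change was 0.42 at 0.1 mg/kg (limma, adjusted p = 0.0354) and 0.37 at 1 mg/kg (adjusted p = 0.0544), or 0.48 there without both in-between samples (adjusted p = 0.00632). Itga2b passed the filter on low values only through digoxin samples, so its call carries that choice. The first call was lost in 7 of the 9 fits without 1 sample, up to an adjusted p of 0.101. The 7 platelet markers in the table summed to 275 to 461 FPKM at 0.1 mg/kg, 348 to 453 FPKM at 1 mg/kg and 63.2 to 185 FPKM with vehicle. Only 2 of them, Pf4 and Ppbp, were tested. Gp6 was at 0 in 7 of the 9 samples and Gp9 in 1. Itgb3, the partner of Itga2b and Itgav, lay between 1.26 and 2.81 FPKM and was not called.

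The broadly expressed β chains were lower or not called. Itgb5, the β chain of the vitronectin receptor αvβ5, had 46.4, 30.9 and 38.2 FPKM at 0.1 mg/kg, 34.5, 45.1 and 39.3 FPKM at 1 mg/kg and 52.5, 57.5 and 61.3 FPKM with vehicle. Every digoxin sample was below every vehicle sample. The fold change was -0.57 ± 0.15 at 0.1 mg/kg (SE, limma, adjusted p = 0.017) and -0.52 ± 0.15 at 1 mg/kg (adjusted p = 0.022), of which 3 and 4 of the 9 fits that leave out 1 sample lost the call, up to an adjusted p of 0.0778. Itgb1 had 169, 158 and 174 FPKM at 0.1 mg/kg, 211, 187 and 183 FPKM at 1 mg/kg and 197, 216 and 202 FPKM with vehicle. It was lower at 0.1 mg/kg, with no overlap and a fold change of -0.29 ± 0.08 (SE, limma, adjusted p = 0.0222). Of the 9 fits that leave out 1 sample, 3 lost this call. At 1 mg/kg the change of -0.085 did not pass (adjusted p = 0.426). Itgb4, the hemidesmosome β chain, lay between 0.592 and 1.49 FPKM and was not called, although all digoxin samples were above all vehicle samples. It was called higher without both in-between samples, with fold changes of 0.49 (limma, adjusted p = 0.0145) and 0.44 (adjusted p = 0.0226). Itgb8 was at most 0.210 FPKM. Itgb6, the epithelial αvβ6 chain, was not tested and had 29, 14 and 33 recovered reads at 0.1 mg/kg, against 23, 13 and 29 reads at 1 mg/kg and 1, 0 and 0 reads with vehicle, at most 0.107 FPKM.

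Among laminins, Lama4, Lamb1 and Lamc1 were lower at both doses and Lama5 and Lamb2 did not pass. Lama4, the laminin α4 chain of vessel walls, had 1.70, 3.05 and 1.59 FPKM at 0.1 mg/kg, 2.23, 1.59 and 1.95 FPKM at 1 mg/kg and 5.86, 5.36 and 5.50 FPKM with vehicle. No digoxin sample reached the lowest vehicle sample. Means were 2.11 ± 0.813, 1.92 ± 0.323 and 5.57 ± 0.255 FPKM at 0.1 mg/kg, 1 mg/kg and with vehicle (SD, n = 3 each). The log2 fold change was -1.11 ± 0.17 at 0.1 mg/kg (SE, limma, adjusted p = 0.00232) and -1.17 ± 0.17 at 1 mg/kg (adjusted p = 0.00153), called in every fit without 1 sample.

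Lamb1, the laminin β1 chain, found in embryonic and vascular laminins, had 43.6, 60.2 and 46.3 FPKM at 0.1 mg/kg, 46.9, 47.2 and 45.5 FPKM at 1 mg/kg and 69.7, 84.7 and 76.2 FPKM with vehicle. All digoxin samples were below vehicle, sample 2 at 0.1 mg/kg least so. The fold change was -0.62 ± 0.12 (SE, limma, adjusted p = 0.0057) at 0.1 mg/kg and -0.71 ± 0.12 (adjusted p = 0.00283) at 1 mg/kg. Lamc1, the γ chain of most laminins, had 30.9, 32.0 and 30.4 FPKM at 0.1 mg/kg, 39.0, 31.9 and 27.8 FPKM at 1 mg/kg and 42.5, 45.5 and 43.4 FPKM with vehicle. Again no digoxin sample reached vehicle. The fold change was -0.48 ± 0.11 (SE, limma, adjusted p = 0.0102) at 0.1 mg/kg and -0.42 ± 0.11 (adjusted p = 0.0161) at 1 mg/kg, and the call at 1 mg/kg was lost without vehicle sample 2 (adjusted p = 0.0584).

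Lama5, the laminin α5 chain of epithelial and vascular basement membranes, had 61.1, 45.1 and 56.3 FPKM at 0.1 mg/kg, 38.0, 58.2 and 64.3 FPKM at 1 mg/kg and 33.4, 41.2 and 39.8 FPKM with vehicle. The groups overlapped only through sample 1 at 1 mg/kg. Fold changes were 0.49 (limma, adjusted p = 0.0715) and 0.45 (adjusted p = 0.0889), and without both in-between samples 0.62 (adjusted p = 0.00134) at 0.1 mg/kg and 0.67 (adjusted p = 0.000882) at 1 mg/kg. Lamb2, the β chain of the synaptic and kidney laminins, had 23.0, 24.5 and 21.7 FPKM at 0.1 mg/kg, 21.2, 24.2 and 23.9 FPKM at 1 mg/kg and 20.2, 23.4 and 23.4 FPKM with vehicle. Its fold change was 0.048 at 0.1 mg/kg and 0.049 at 1 mg/kg, with a 95% interval of -0.15 to 0.25 (limma, adjusted p = 0.682 and 0.672). The ratio of Lama5 to Lamb1 was 1.40, 0.749 and 1.22 at 0.1 mg/kg, then 0.811, 1.23 and 1.41 at 1 mg/kg and finally 0.478, 0.486 and 0.522 with vehicle, every digoxin sample above every vehicle sample. Lama4 made up 2.67% to 6.30% of the summed laminin α level at 0.1 mg/kg, 2.62% to 5.51% at 1 mg/kg and 11.4% to 14.8% with vehicle.

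The other 6 laminin genes were not tested. Lama3 and Lamb3, chains of epithelial laminin, were at most 0.467 and 0.226 FPKM. Lamc3 was at most 0.354 FPKM, Lama2, the laminin α chain of muscle and nerve, at most 0.313 FPKM, and Lama1 at most 0.0207 FPKM.

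Vessel and stroma markers stood as follows beside the laminins. None of 12 endothelial markers, all tested and none at 0, was called at either dose, with sums of 61.1 to 90.3 FPKM at 0.1 mg/kg, 34.7 to 106 FPKM at 1 mg/kg and 66.6 to 92.3 FPKM with vehicle. In the fit that leaves out both in-between samples, 3 were called higher and 1 lower at 0.1 mg/kg and 7 higher at 1 mg/kg, while Lama4 kept its fall, with fold changes of -1.31 and -1.25. Of 12 fibroblast and pericyte markers, 11 were tested and none was at 0, with 3 called higher and 3 lower at 0.1 mg/kg and 1 higher and 4 lower at 1 mg/kg. Their sums were 263 to 340, 279 to 309 and 418 to 442 FPKM at 0.1 mg/kg, 1 mg/kg and with vehicle. These sums hide a split by gene. Dcn was called lower at both doses (fold changes -1.36 and -1.96) and Col1a1 higher at both (1.41 and 1.86). The part of vessels and of fibroblasts in the laminin differences was not tested.

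**Figure D5:**
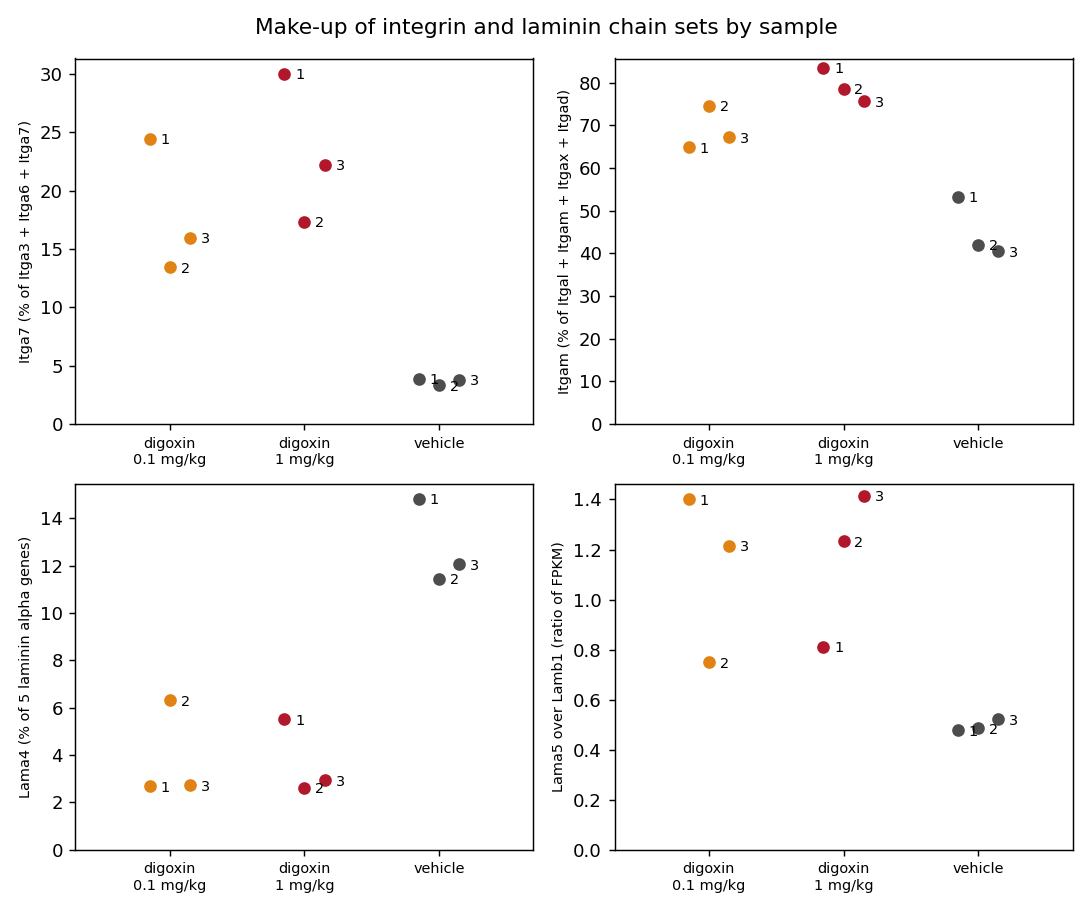
Shares and ratios of chain levels per sample for digoxin 0.1 mg/kg, digoxin 1 mg/kg and vehicle: Itga7 as a percent of Itga3, Itga6 and Itga7 summed, Itgam as a percent of the β2 partner α chains summed, Lama4 as a percent of laminin α chains summed, and the ratio of Lama5 to Lamb1. In all 4 panels no digoxin sample overlaps vehicle, with Itgam at 64.9% to 83.5% in digoxin samples and 40.5% to 53.2% in vehicle samples.

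Between the doses none of the 24 members passed the test (limma), against 0.0146% of all tested genes, all of them lower at 1 mg/kg. An unadjusted p under 0.05 was found for 3 members, against 13.6% of all tested genes. With a 2-fold minimum the background was 0.00731%. The doses did not overlap for 2 members, against 17% of all tested genes. The 3 members were Itga7 (0.66), Itgal (-1.00) and Itgb1 (0.21), given as the log2 difference of 1 mg/kg over 0.1 mg/kg. These were Itgb1 and Itgal: Itgb1 was above every sample at 0.1 mg/kg in all 3 samples at 1 mg/kg, and Itgal was below. Without both in-between samples 4 members passed, in a fit that called 3.4% of all tested genes: Itga10 (1.66, adjusted p = 0.0135) and Itga3 (0.53, adjusted p = 0.00924) were higher at 1 mg/kg, and Itgal (-1.01, adjusted p = 0.0122) and Itgb2 (-0.43, adjusted p = 0.0477) were lower. For Itgam the difference was -0.097 (95% interval -0.40 to 0.20) and for Lama4 -0.066 (-0.46 to 0.33).

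Inside the cell, integrins act through adaptors and kinases that link their β tails to actin. Of 24 listed adaptors and kinases 22 were tested, with 5 called higher and 4 lower at 0.1 mg/kg (median log2 fold change 0.045) and 5 higher and 5 lower at 1 mg/kg (0.11). These shares are close to the 42.2% and 45.9% of all tested genes called at the same doses, so the genes named from this list and those that follow are descriptions of single genes. Ptk2b, the FAK-related kinase Pyk2, had 26.6, 15.7 and 27.6 FPKM at 0.1 mg/kg, 20.9, 23.6 and 20.1 FPKM at 1 mg/kg and 3.65, 3.56 and 3.38 FPKM with vehicle. Its fold change was 2.38 ± 0.19 at 0.1 mg/kg and 2.31 ± 0.19 at 1 mg/kg (SE, limma, adjusted p = 0.000221 and 0.000224). Zyx (zyxin, of focal adhesions) was higher in every digoxin sample, with fold changes of 0.78 and 0.84. Lims2 (PINCH-2, a partner of integrin-linked kinase) had 2.32 to 2.80 FPKM at 0.1 mg/kg, 3.13 to 4.06 FPKM at 1 mg/kg and 0.328 to 0.529 FPKM with vehicle, and passed the filter only through digoxin samples. Vcl (vinculin, which couples talin to actin) had 5.72, 5.47 and 4.51 FPKM at 0.1 mg/kg, 12.2, 7.64 and 7.05 FPKM at 1 mg/kg and 14.1, 15.7 and 14.8 FPKM with vehicle, fold changes of -1.35 and -0.70, both called.

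Outside the cell, 14 of 17 listed basement membrane partners of laminin were tested. At 0.1 mg/kg 2 were called higher and 5 lower (median -0.23), and at 1 mg/kg 3 higher and 5 lower (median -0.32). Col4a5, called higher at 1 mg/kg, passed the filter only through digoxin samples. Dag1, dystroglycan, the non-integrin laminin receptor, had 17.1, 17.4 and 16.1 FPKM at 0.1 mg/kg, 23.2, 19.8 and 17.8 FPKM at 1 mg/kg and 31.2, 33.0 and 32.2 FPKM with vehicle, fold changes of -0.89 and -0.65. Hspg2 (perlecan) was also lower, by -0.90 and -0.88. Agrn (agrin, which binds laminin and dystroglycan) was higher, with 42.1, 24.7 and 43.4 FPKM at 0.1 mg/kg, 35.2, 46.2 and 42.2 FPKM at 1 mg/kg and 16.9, 16.9 and 18.2 FPKM with vehicle. Its fold changes were 1.00 and 1.20, and those of Sparc, a collagen-binding matrix protein, 1.15 and 1.29. All 4 genes were called at both doses.

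Among 14 tested of 23 other integrin ligands, 4 were called higher and 1 lower at 0.1 mg/kg (median 0.33) and 5 higher and 2 lower at 1 mg/kg (median 0.31). Ccn1, a secreted ligand of αv and α6 integrins, had 94.7, 66.3 and 64.7 FPKM at 0.1 mg/kg, 446, 197 and 209 FPKM at 1 mg/kg and 34.4, 30.2 and 21.1 FPKM with vehicle. The 3 groups did not overlap, and the fold changes against vehicle were 1.37 ± 0.32 and 3.19 ± 0.32 (SE, limma, adjusted p = 0.0106 and 0.000431). Its relative Ccn2 was higher by 0.37 and 1.34, and Fn1, fibronectin, the ligand of α5β1, was lower by -0.59 and -0.65, all called. Icam1, the ligand of LFA-1 and Mac-1, was higher at 0.1 mg/kg (0.85, limma, adjusted p = 0.0085), with 0.32 at 1 mg/kg (adjusted p = 0.196). Of 7 tested of 10 hemidesmosome and tetraspanin genes, 3 were called higher and none lower at 0.1 mg/kg, and 4 higher and 1 lower at 1 mg/kg. The tetraspanins Cd9 (0.98 and 1.12) and Cd151 (0.63 and 0.80), which sit beside laminin-binding integrins, and the linker Plec (plectin, 0.54 and 0.55) were called higher at both doses. Cd81 was lower at 1 mg/kg (-0.50) and not called at 0.1 mg/kg (-0.15). The fit without both in-between samples called 61.5% and 61.3% of all tested genes at the lower and the higher dose. At 0.1 mg/kg it called 6 adaptors higher and 6 lower, and 3 basement membrane partners higher and 6 lower. Of other ligands 8 were higher and 1 lower there, and of hemidesmosome and tetraspanin genes 5 higher and none lower. At 1 mg/kg it called 9 adaptors higher and 6 lower, and 6 basement membrane partners higher and 6 lower. Of other ligands 9 were then higher and 3 lower, and of hemidesmosome and tetraspanin genes 5 higher and 1 lower.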

How the data were processed

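RNA-seq was made from 9 LLC tumour samples, 3 per group. Poly(A) RNA was read as 150 bp pairs, per the labels. The authors deposited 1 table of FPKM for 35321 genes. The tools were fastp 0.22.0 with HISAT2 2.2.1, per the submitters' processing notes, which name GRCh38, a human build, although the symbols are mouse symbols. Of the read counter, its annotation and any strand setting nothing is given in the sources used here, so FPKM of overlapping genes cannot be told apart.

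Depths and reads were recovered from the spacing of the FPKM values, within 0.03 of a whole read, with gene lengths mostly from the mouse annotation, and are denominators of FPKM. No column was left without a sample. FPKM were transformed to log2(FPKM + 1), so fold changes of low genes are understated. The 13687 genes that reached 1 FPKM in 3 or more samples were tested with limma 3.58.1 (R 4.3.3), all 9 samples in 1 fit with group means, no replicate block, a mean-variance trend, two-sided, Benjamini-Hochberg over all tested genes, threshold 0.05. The script was tested on simulated data. Members with an adjusted p under 0.05 at either dose, or a group mean of at least 10 FPKM, are given per sample, and of each partner list the up to 4 genes with the smallest p. Fermt1, Fgg, Krt5 and Gp1bb of the lists are not analysed here. Values of 1 laminin gene are not reported here. The members and lists were chosen with earlier results of these data known. Promoter sequences are RefSeq's, for GRCm38.p6. Alternatives were another pseudocount, other filters, quantile and TPM scaling, no trend, 2 groups only, a replicate block, a 2-fold minimum and leaving out samples.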

Additional observations from a re-analysis of the deposited data

How the results depend on the processing

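With at least a 2-fold change asked for, 1222 genes passed at 0.1 mg/kg, 1369 at 1 mg/kg and 1 between the doses, with 3, 4 and 0 members, against 5781, 6277 and 2 genes and 9, 9 and 0 members otherwise. With a mean of at least 5 FPKM, 4159 genes passed at 1 mg/kg and 1 between the doses. Between the doses, 10 genes passed with no filter, 1 without trend, 0 with a pseudocount of 0.1 and 0 with only the 2 groups. Leaving out 1 sample gave 3414 to 7074 genes at 0.1 mg/kg, 4129 to 7373 at 1 mg/kg and 0 to 133 between the doses, with 5 to 12, 5 to 11 and 0 members. Without both in-between samples, an alternative chosen after seeing the data, 465 genes passed between the doses, with 16, 17 and 4 members in the 3 comparisons. TPM scaling moved the median of all genes at 0.1 mg/kg to -0.089, against 0.018, with the splits of calls given above. At 1 mg/kg, where 2833 were higher and 3444 lower, TPM gave 2447 and 4173, and members 3 higher and 8 lower. Deviations of samples of the same number had correlations of 0.0908 to 0.193 at 0.1 mg/kg against vehicle, above those of different number (-0.135 to 0.0357). At 1 mg/kg against vehicle they were -0.0587 to 0.00057, beside -0.099 to 0.146 for different numbers. Between the doses they were -0.441 to 0.279, beside -0.475 to 0.52. With 3 samples per group, these values cannot decide whether the numbers pair the samples. With a replicate block 4967, 5541 and 0 genes and 6, 7 and 0 members passed. The cause of these shifts was not tested.

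Directions that turned were all of members that had not passed. At 0.1 mg/kg these were Itga2 under quantile scaling (-0.029), Itga3 (-0.017), Itgb7 (-0.0059) and Lamb2 (-0.064) under TPM, and Itgax (0.11), Itgb2 (0.15) and Itgb7 (-0.017) without both samples. At 1 mg/kg they were Itga2 under quantile scaling (-0.11), Lamb2 under TPM (-0.035) and Itgb3 without both samples (0.19). Leaving out 1 sample gave ranges across 0 at 0.1 mg/kg for Itgax (-0.34 to 0.11), Itgb2 (-0.12 to 0.15), Itgb7 (-0.017 to 0.19) and Lamb2 (-0.020 to 0.089). At 1 mg/kg it did so for Itgb2 (-0.28 to 0.036), Itgb3 (-0.19 to 0.19) and Lamb2 (-0.019 to 0.11). Between the doses, where no member passed, it did so for Itgb2 (-0.26 to 0.051), Lama4 (-0.18 to 0.14) and Lama5 (-0.19 to 0.18). The same held there for Itga2b, Itga5, Itga6, Itgb3, Itgb4, Itgb5, Lamb1, Lamb2 and Lamc1. Itgb6, Itgad, Lama1 and Itga11 had few reads in all groups, which limits what their levels can show. With no filter on low values, Itgb6 was called higher at 0.1 mg/kg (0.11, limma, adjusted p = 0.0311) and 1 mg/kg (0.10, adjusted p = 0.041). At 1 mg/kg that fit also called Itgae lower (-0.31, limma, adjusted p = 0.0232) and Lamc3 higher (0.28, adjusted p = 0.0303). It called 14.1% of all 35321 genes at 0.1 mg/kg and 16.1% at 1 mg/kg.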
